A study of Arabis alpina with 12 samples.

Results

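Leaves of the pep1-1 mutant were compared with leaves of the wild type (WT) of the perennial crucifer Arabis alpina by sequencing of polyadenylated RNA. The leaf libraries are 6 of the 12 in the series: 3 from WT plants of the cultivar Pajares and 3 from pep1-1 plants, also labelled Pajares. All plants were grown on soil at 22 °C in long days and harvested at an age of 2 weeks per the labels, 8 h after lights on; the series text gives a shorter age. No other allele or treatment is named for either genotype, the mutant enters through a single line, and the labels do not say whether replicates were separate plants, and the spread that p-values rest on may therefore be technical. The mutant libraries carry PEP1 in their titles and were assigned by their genotype label.

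PEP1 (PERPETUAL FLOWERING 1) encodes a MADS-box transcription factor, the Arabis alpina orthologue of FLC, which represses flowering in Arabidopsis. In Arabis alpina its transcript declines during long cold and returns afterwards, so that flowering stays seasonal, and pep1 mutants flower without cold treatment. The comparison asks which leaf transcripts depend on the genotype before any cold. The deposited tables give identifiers without gene names, so PEP1 itself was not checked, no role is given to any gene, the leaf identity of the libraries was not checked against markers, and lists of flowering or photosynthesis genes were not counted. Genes are therefore described by position, in the coordinates of the deposited tables, and identifiers are printed for 4 of them.

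The leaf libraries held 21841331 to 38819193 reads over 35465 genes, with 1 transcript per gene. Levels are given as CPM, the reads of a gene relative to the reads of all genes tested in its library, scaled between the leaf libraries. Genes were tested with edgeR's quasi-likelihood test, and those with a Benjamini-Hochberg adjusted p under 0.05 are referred to as called. The 12529 genes with too few reads were not tested. WT replicate 1 stood apart from the other leaf libraries. Its log2 CPM values correlated across genes at 0.9852 and 0.9902 with WT replicates 2 and 3, which correlated at 0.9924 with each other, and at 0.9875 with pep1-1 replicate 3. Counts of called genes are therefore also given without it.

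With all 6 libraries, 95 of 22936 genes tested were called, which is 0.414%. Of these, 57 were higher in pep1-1 leaves and 38 were lower, or 0.249% and 0.166% of the genes tested. The 3 WT values and the 3 mutant values did not overlap for any of the 95 genes, a pattern that 15.4% of all genes tested also showed. The median size of the change was 2.006 on the log2 scale for the genes that fell and 1.429 for those that rose, against 0.10 over all genes tested; the sizes of rises and falls were not tested against each other. At the top of the range, 5 genes rose and 3 fell at least 16-fold by the fitted value, although 1 of the falls had no mutant read and its fitted value is no bound. Another 12 rose and 16 fell between 4- and 16-fold, and 18 rose and 10 fell between 2- and 4-fold. In all, 64 called genes changed 2-fold or more, and 299 of the genes tested, or 1.3%, had a fitted change of that size, called or not. A further 103 genes had an edgeR adjusted p from 0.05 to 0.10, 67 of them higher and 36 lower.

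**Figure D1:**
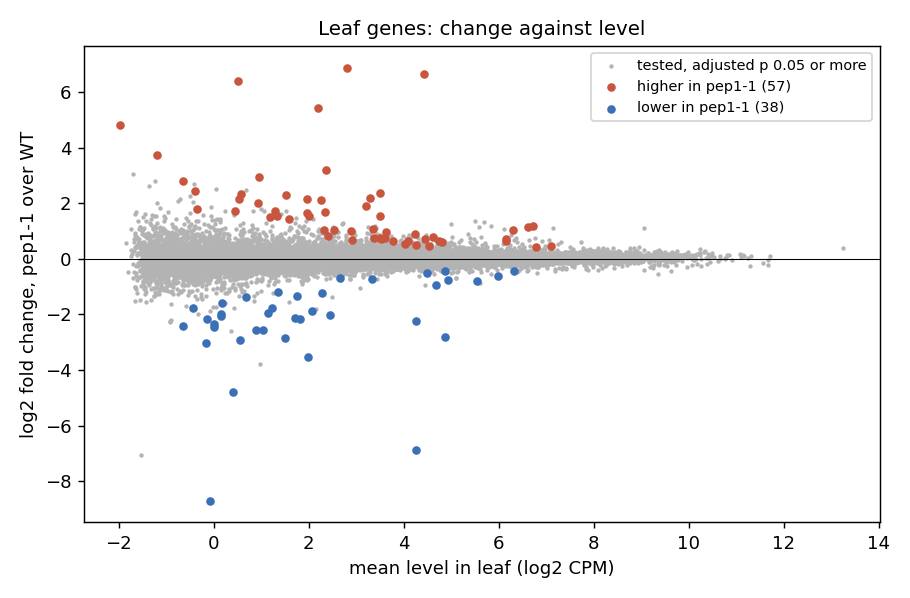
Each point is 1 of the 22936 genes tested in leaf, with its mean level in log2 CPM on the horizontal axis and its log2 fold change, pep1-1 over WT, on the vertical axis. Called genes are coloured, 57 higher and 38 lower in pep1-1, and the called gene with the largest rise lies at 6.88.

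Some called genes were read at very low levels in one of the genotypes. A called gene was counted as near-silent in a genotype when its 3 libraries were all under 0.5 CPM and the other genotype's 3 libraries were all at 1 CPM or more. There were 12 such genes, 4 near-silent in WT and 8 near-silent in pep1-1. Among all genes tested, 0.0567% had these levels.

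Aa_G874400, which starts at the first base of the scaffold scaff_47458_1 (1 to 1630), had 13.4 to 14.5 CPM in the mutant libraries. In WT it had 0.0262, 0.401 and 0.0267 CPM in replicates 1, 2 and 3. The gene was thus close to absent in WT, with its highest WT value in replicate 2. It rose by 6.88 on the log2 scale (SE 0.43, edgeR adjusted p = 0.000678), and by 8.84 when WT replicate 2 was left out. Aa_G647150 on chromosome 6 (4449808 to 4451761) had 44.5, 45.0 and 38.9 CPM in pep1-1 replicates 1 to 3. The WT libraries had 0.236, 1.11 and 0.187 CPM, again highest in replicate 2, which kept the gene out of the near-silent count. It rose by 6.64 on the log2 scale (SE 0.36, edgeR adjusted p = 0.000807), and by 7.63 without WT replicate 2.

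A locus on chromosome 8 (26096563 to 26097447) had 8.29, 9.75 and 9.07 CPM in the mutant. In WT it had 0.0262, 0.178 and 0.401 CPM, here highest in replicate 3. It rose by 5.44 on the log2 scale (SE 0.39, edgeR adjusted p = 0.00111), by 4.82 without WT replicate 1 and by 6.68 without WT replicate 3. The size of these rises thus depended on single WT libraries with few reads. The WT library with most reads from these loci therefore was not the same each time. A locus on chromosome 7 (25050637 to 25054110) had 64, 90 and 86 reads in the mutant libraries and 3, 0 and 0 in WT. After scaling, the ratio was 90.6, with a 95% counting interval from 30.6 to 442 that leaves out the spread between replicates, and WT replicate 1 supplied every WT read. The smallest of the 4 rises from near-silence was on chromosome 4 (13836170 to 13837749), with 1.12 to 1.38 CPM in pep1-1 and 0.105 to 0.347 CPM in WT (log2 fold change 2.43, SE 0.38, edgeR adjusted p = 0.0326). Its call ended when WT replicate 2, WT replicate 3 or any mutant library was left out, with edgeR adjusted p from 0.0578 to 0.165. One more rise above 16-fold, on chromosome 2 (1787240 to 1788638) and outside the named set, rested on 1 WT read against 34 mutant reads, a ratio of 38.5 with a 95% counting interval from 6.46 to 1565.

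In the other direction, Aa_G117060 on chromosome 6 (4661693 to 4663219) had 28.7, 27.4 and 55.9 CPM in WT replicates 1 to 3. The mutant libraries had 0.365, 0.0878 and 0.425 CPM. The groups stood far apart although WT replicate 3 was well above the other WT libraries. It fell by 6.90 on the log2 scale (SE 0.49, edgeR adjusted p = 0.00262), while limma-voom gave an adjusted p of 0.069. A locus further along chromosome 6 (19562629 to 19564983) had 63, 36 and 67 reads in the WT libraries and 0 in each mutant library. Against a floor of 3 reads per mutant library it was at least 15.7-fold lower in pep1-1 (edgeR adjusted p = 0.00262). A long gene model on chromosome 5 (18704112 to 18717847) had 1.91, 2.05 and 3.02 CPM in WT and 0.0281, 0.0439 and 0.177 CPM in pep1-1 (log2 fold change -4.78, SE 0.47, edgeR adjusted p = 0.00281), and its log2 fold change was -5.93 without pep1-1 replicate 3.

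The 5 remaining genes near-silent in pep1-1 were low in WT as well, at 1.13 to 2.94 CPM, and fell by between 2.05 and 2.92 on the log2 scale. They lie on chromosome 2 (7605695 to 7609379), chromosome 3 (3672030 to 3674694), scaff_43932_1 (8272 to 9263) and, side by side, on chromosome 6 (34312433 to 34313003 and 34313133 to 34313569). The calls on chromosomes 2 and 3 and on scaff_43932_1 ended without WT replicate 3 or without any one mutant library, with edgeR adjusted p up to 0.177. That on chromosome 3 ended with limma-voom as well (adjusted p 0.068), and the call of the last gene on chromosome 6 ended without pep1-1 replicate 1 (0.0505). One locus outside the named set, chosen after its values were seen, had no mutant read and yet missed the threshold. On chromosome 4 (9603012 to 9611393) the WT libraries had 13, 18 and 21 reads and the mutant libraries 0, with an edgeR adjusted p = 0.0572.

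Among called genes whose mean log2 CPM was 1 or more, 46 rose and 24 fell, and the 12 largest on each side were examined by library. After the 3 rises described above, a locus on chromosome 3 (24168695 to 24171270) had 9.05 to 9.81 CPM in the mutant and 0.577, 1.69 and 0.988 CPM in WT (log2 fold change 3.19, SE 0.27, edgeR adjusted p = 0.00232). A locus on chromosome 8 (10871531 to 10873515) had 3.49, 3.38 and 4.03 CPM in WT and 13.5, 20.4 and 23.3 CPM in pep1-1. WT libraries were close to each other there, while mutant replicate 1 was the lowest of its group, and with all 12 libraries in one fit the edgeR adjusted p was 0.0684. The locus on chromosome 6 (29837860 to 29842808) was alike in this, with 11.6 CPM in mutant replicate 1, 19.1 and 18.0 CPM in the others and 2.97 to 4.28 CPM in WT.

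Rises with little spread in both groups followed. On chromosome 5, 18801877 to 18803808 had 1.65 to 1.98 CPM in WT and 7.25 to 8.75 CPM in pep1-1 (log2 fold change 2.13, SE 0.15, edgeR adjusted p = 0.000576). Also on chromosome 5, 19142676 to 19144240 had 1.21 to 1.76 CPM in WT and 5.73 to 6.84 CPM in pep1-1 (log2 fold change 2.15, SE 0.18, edgeR adjusted p = 0.00144). On chromosome 4, 21856576 to 21859137 had 3.46 to 4.38 CPM in WT and 13.3 to 15.5 CPM in pep1-1 (log2 fold change 1.91, SE 0.12, edgeR adjusted p = 0.0004). In these loci the lowest mutant library stood more than 3-fold above the highest WT library. The 2 smallest of the 12 rises were on chromosome 8 (3737197 to 3739039) and chromosome 2 (16675259 to 16677143), at 1.71 and 1.67 on the log2 scale.

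The fall with the smallest adjusted p was on chromosome 2 (25116053 to 25120037). It had 48.3, 52.3 and 50.7 CPM in WT replicates 1 to 3 and 6.10, 7.73 and 7.86 CPM in the mutant ones (log2 fold change -2.81, SE 0.10, edgeR adjusted p = 9.24e-06). A locus on chromosome 8 (5765423 to 5770059) had 30.7, 32.1 and 31.5 CPM in WT and 6.16, 7.73 and 6.13 CPM in pep1-1 (log2 fold change -2.24, SE 0.10, edgeR adjusted p = 3.06e-05). Both were well expressed in WT and remained clearly detected in the mutant, unlike the near-silent genes. Aa_G365540, also on chromosome 8 (5257134 to 5261576), had 6.84, 7.26 and 6.92 CPM in WT and 0.703, 0.703 and 0.390 CPM in pep1-1 (log2 fold change -3.54, SE 0.20, edgeR adjusted p = 0.000172). Its 2 further annotated transcripts fell by 3.67 and 3.57 on the log2 scale. The 3 smallest of the 12 falls were on chromosome 8 (25768645 to 25771017), chromosome 2 (2957995 to 2959348) and chromosome 3 (27208923 to 27211281), with log2 fold changes of -1.95, -1.89 and -1.77. The first lost its call without WT replicate 3 or pep1-1 replicates 1 or 2 (edgeR adjusted p up to 0.169). The last lost it without any one library other than WT replicate 1 (edgeR adjusted p up to 0.174) and with limma-voom (adjusted p 0.0614). The remaining 5 of the 12 falls and the sixth rise belong to neighbouring pairs described below.

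**Figure D2:**
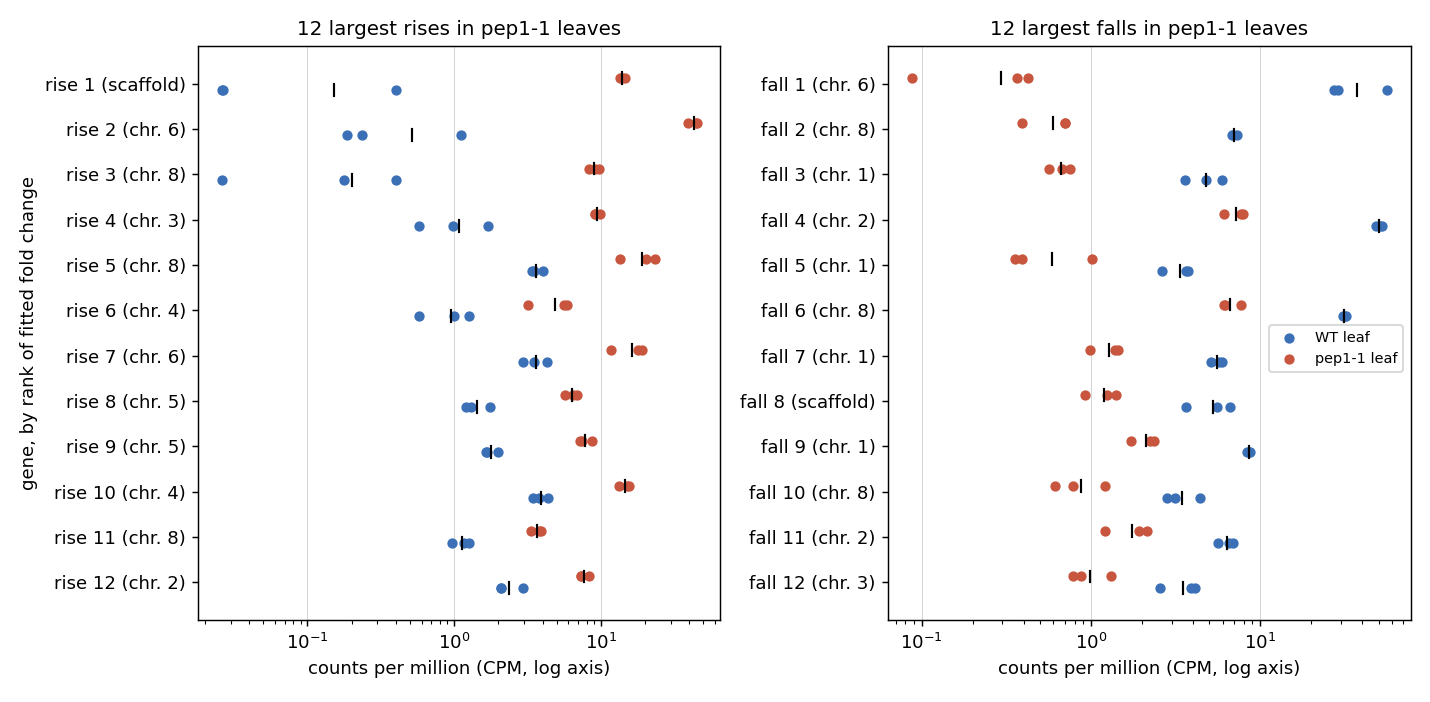
CPM in every leaf library, on a log axis, for the 12 largest rises and the 12 largest falls among called genes whose mean log2 CPM was 1 or more; points are libraries, blue WT and red pep1-1, and black ticks are group means. WT and mutant points do not overlap in any of the 24 genes, which was a condition for listing them and held for 15.4% of all genes tested. The widest gaps are in rises 1 to 3 and in fall 1.

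The called genes with the highest CPM had modest changes, from 0.42 to 1.18 on the log2 scale. By mean CPM the highest 5 were on chromosome 8 (10947686 to 10948471), chromosome 2 (26507786 to 26510008), chromosome 1 (20342825 to 20344620), chromosome 8 (9564898 to 9571836) and chromosome 2 (26170834 to 26172087). Per kilobase of annotated span, which can include introns, their mean levels over the 6 libraries were 175, 49.3, 58.6, 14.1 and 63.5 CPM. The first had 124, 108 and 116 CPM in WT and 160, 159 and 157 CPM in pep1-1, a log2 fold change of 0.45 (SE 0.07, edgeR adjusted p = 0.0326). The fifth was the one that fell, from 88.9 to 94.5 CPM in WT to 64.6 to 70.4 CPM in pep1-1 (log2 fold change -0.42, SE 0.06, edgeR adjusted p = 0.0281). Both calls ended without any one library other than WT replicate 1, with edgeR adjusted p up to 0.221 for the first and 0.154 for the fifth, and the latter also with all 12 libraries in one fit (0.206). So did that of the second gene, which had 91.7 to 96.4 CPM in WT and 117 to 135 CPM in pep1-1 (log2 fold change 0.42, SE 0.07, edgeR adjusted p = 0.0458, up to 0.255 without a library and 0.287 with all 12). The locus on chromosome 1 had 52.8, 74.0 and 66.4 CPM in WT and 165, 153 and 119 CPM in the mutant (log2 fold change 1.18, SE 0.15, edgeR adjusted p = 0.0228), with adjusted p up to 0.130 without WT replicate 3 or pep1-1 replicates 1 or 2. The longest of these models, on chromosome 8 (9564898 to 9571836), had 69.3, 55.9 and 58.2 CPM in WT and 124, 125 and 156 CPM in pep1-1 (log2 fold change 1.14, SE 0.11, edgeR adjusted p = 0.0034), and its call held in each of 15 alternative fits.

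In the edgeR fit of all 6 libraries, the share of called genes fell with the level. When the genes tested were ordered by mean log2 CPM and cut into 5 classes of equal size, 0.719% of the lowest class was called, then 0.501%, 0.392%, 0.262% and 0.196% in the highest. The lowest class, with a median mean level of 1.08 CPM, held 33 called genes, 14 higher and 19 lower. The next class held 15 that rose and 8 that fell, and the highest 7 and 2. The median size of called changes went from 2.33 in the lowest class to 0.641 in the highest, and the smallest called change from 1.196 to 0.421. Changes of 2-fold or more, called or not, were found for 234 genes of the lowest class and 8 of the highest. Without WT replicate 1 the lowest class held 16.9% of called genes and the highest 31.1%, against 34.7% and 9.47% with all 6 libraries. With the DESeq2 Wald test on all 6 libraries these classes held 20.9% and 16.6%. The reads in all called genes were a small part of each library. The 57 genes that rose held 0.0769% to 0.0789% of the reads of the genes tested in WT and 0.141% to 0.145% in pep1-1, while the 38 that fell held 0.0553% to 0.0625% in WT and 0.0276% to 0.0285% in pep1-1. These shares describe genes chosen on the same libraries.

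Along the genome, called genes were found on all 8 chromosomes. Chromosome 2 had the highest share, 16 of 1966 genes tested or 0.814%, of which 12 rose and 4 fell. Chromosome 7 had the lowest, 3 of 2066 or 0.145%, and its 3 called genes all rose. Chromosomes 3 and 5 were also low, at 0.202% and 0.218%, while chromosomes 1, 4, 6 and 8 lay between 0.411% and 0.515%, near the 0.414% of all genes tested. No test of this unevenness was made here. Without WT replicate 1, chromosomes 2 and 7 held 9.66% and 9.44% of called genes, close to the 8.57% and 9.01% of the genes tested that they carry. With all 6 libraries they held 16.8% and 3.16% with edgeR, and 17.2% and 3.45% with limma-voom. The DESeq2 Wald test on the same libraries gave 10.9% and 9.27%, nearer to the shares of the genes tested. All 12 libraries in one fit also moved both shares toward those of the genes tested. Unplaced scaffolds held 12 called genes of 1905 tested, or 0.630%, on 11 scaffolds, with 5 higher and 7 lower. Of these 12 models 3 start at the first base of their scaffold, as do 472 of the 1905 tested.

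**Figure D3:**
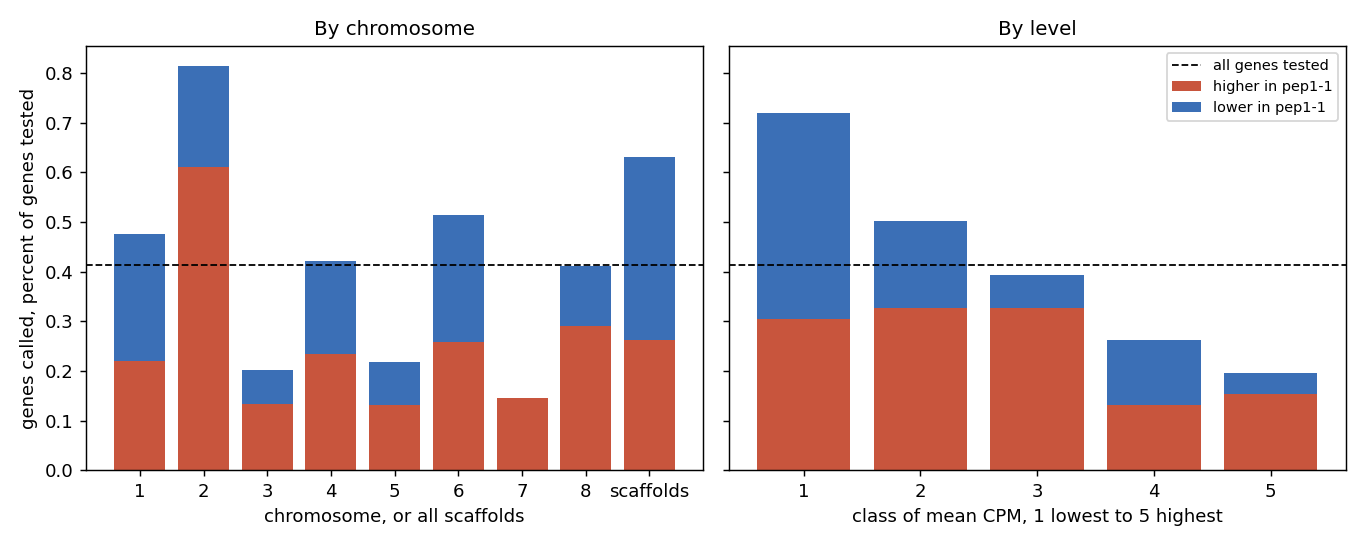
Called genes as a percentage of genes tested, by chromosome (left, with all scaffolds together) and by class of mean CPM (right, 1 lowest to 5 highest); red parts are genes higher and blue parts genes lower in pep1-1, and the dashed line is the 0.414% of all genes tested. Chromosome 2 reaches 0.814% and chromosome 7 0.145%, and the share falls from 0.719% in class 1 to 0.196% in class 5.

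Called genes were 0.414% of those tested, and successive ones on a chromosome were a median of 1264 kb apart. In 6 cases, however, called genes lay within 10 kb of each other, and in each case both moved in the same direction, 5 pairs falling and 1 rising. Whether 6 such pairs exceed the number for genes drawn at random was not tested. In 5 of the 6 pairs no other tested gene lies between the members. None of the models overlaps another, but the strand used in counting is not stated, so reads running past the end of a model into its neighbour cannot be told apart from its own.

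The first pair is on chromosome 1, at 9309270 to 9310193 and 9310917 to 9313861, with 723 bp between them. The gene with the lower coordinates had 3.59, 4.77 and 5.98 CPM in WT and 0.675, 0.747 and 0.567 CPM in pep1-1 (log2 fold change -2.85, SE 0.25, edgeR adjusted p = 0.00196). The other had 8.33 to 8.68 CPM in WT and 1.71 to 2.37 CPM in pep1-1 (log2 fold change -2.03, SE 0.15, edgeR adjusted p = 0.000678). Both members fell by a factor of 4 or more. The second pair, at 12026933 to 12028478 and 12028832 to 12030136 on the same chromosome, is 353 bp apart. Its members had 5.11 to 5.92 and 2.62 to 3.74 CPM in WT against 0.984 to 1.45 and 0.354 to 1.01 CPM in pep1-1, with log2 fold changes of -2.15 and -2.57. The call of the second member ended without WT replicate 3 or pep1-1 replicates 1 or 3 (edgeR adjusted p from 0.0816 to 0.156).

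The third pair on chromosome 1 differed in kind. Its genes, at 19674025 to 19676359 and 19684125 to 19688530, had 74.6 to 78.0 and 35.0 to 40.6 CPM in WT and 44.3 to 53.5 and 22.3 to 22.9 CPM in pep1-1, so both were abundant and fell by 0.61 and 0.75 on the log2 scale. The tested gene between them (19680058 to 19680525) had 4.88, 3.25 and 5.82 CPM in WT and 2.98, 2.55 and 2.87 CPM in pep1-1, a log2 fold change of -0.75 (SE 0.21) with an edgeR adjusted p = 0.250. Its value was of the same size as those of its neighbours, with a wider error. The call of the first of the 3 genes ended without WT replicate 3 or pep1-1 replicate 3 (edgeR adjusted p 0.0807 and 0.054) and with all 12 libraries in one fit (0.4).

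The only rising pair was on chromosome 4, at 7269789 to 7270353 and 7270809 to 7272493, 455 bp apart. Its first gene had 0.312 to 0.775 CPM in WT and 2.00 to 2.72 CPM in pep1-1 (log2 fold change 2.16, SE 0.31, edgeR adjusted p = 0.0222), and its second 0.579 to 1.26 and 3.18 to 5.88 CPM (log2 fold change 2.30, SE 0.31, edgeR adjusted p = 0.0212). The first call ended without any one mutant library (edgeR adjusted p up to 0.126), and the second without WT replicate 3 or pep1-1 replicates 2 or 3 (up to 0.116) and with limma-voom (adjusted p 0.0628). With all 12 libraries in one fit both calls ended, at edgeR adjusted p of 0.173 and 0.0771. The near-silent pair on chromosome 6 (34312433 to 34313569), 129 bp apart, had 2.18 to 2.94 and 1.43 to 1.76 CPM in WT and 0.220 to 0.422 and 0.264 to 0.283 CPM in pep1-1, with log2 fold changes of -2.92 and -2.47.

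The last pair lies on scaff_73268_1, at 8857 to 9391 and 9465 to 11571, with 73 bp between its members. They had 0.855 to 2.05 and 3.66 to 6.64 CPM in WT and 0.112 to 0.264 and 0.921 to 1.41 CPM in pep1-1, with log2 fold changes of -3.03 and -2.14 (edgeR adjusted p = 0.0312 and 0.0103). Both calls ended without any one of the 3 pep1-1 libraries, with edgeR adjusted p from 0.0564 to 0.221, and that of the first member with limma-voom (adjusted p 0.0713). The next model on this scaffold (12317 to 14943) was not called by the transcript used for it, whose log2 fold change was -0.30 (edgeR adjusted p = 0.259). Its other annotated transcript had a log2 fold change of -1.86 when every transcript was tested (edgeR adjusted p = 0.0473).

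**Figure D4:**
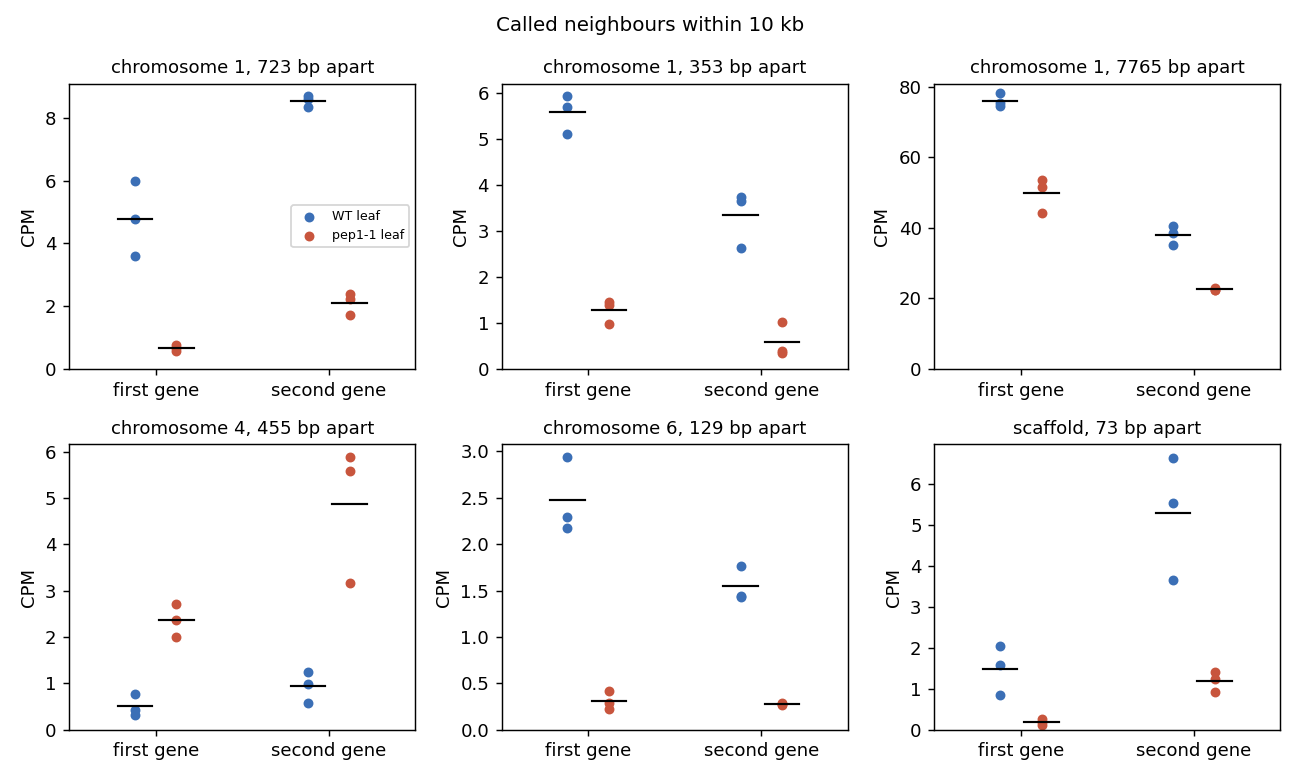
CPM in the 3 WT (blue) and 3 pep1-1 (red) leaf libraries for both genes of the 6 pairs of called genes within 10 kb, with group means as black bars and vertical axes starting at 0. In 5 pairs both genes are lower in pep1-1, and in the pair on chromosome 4 both are higher.

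At wider distances, 10 of 12 pairs of successive called genes within 100 kb and 13 of 22 within 500 kb moved in the same direction, the 6 close pairs included in both counts. On chromosome 6 the gene with the second largest rise (Aa_G647150) and the one with the largest fall among genes of that level (Aa_G117060) lie 210 kb apart. The 20 genes tested between them had log2 fold changes from -0.47 to 0.43, with a median of -0.03. On chromosome 5, a gene near-silent in pep1-1 (18704112 to 18717847) and a gene that rose (18801877 to 18803808) were 84.0 kb apart, and the 7 genes between had values from -0.32 to 0.19. A run of 3 rising genes on chromosome 2, at 16578957, 16675259 and 16763879, spanned log2 fold changes from 1.56 to 1.73, with 10 and 4 tested genes in between that ranged from -0.45 to 0.34. In these 3 stretches no tested gene between the called ones reached 2-fold. Among the other stretches within 500 kb, 1 on chromosome 5 and 1 on chromosome 7 each held a gene past 2-fold between called genes, with log2 fold changes of 1.06 and -1.24. Counted once for each called gene they lie beside, 164 direct neighbours were tested but not called. Their median size of change was 0.139, against 0.10 over all genes tested. Of the 164, 6 had a fitted change of 2-fold or more, or 3.66%, against 1.3% of genes tested. Beside genes that rose, 54 of 105 had the same sign, or 51.4%, and beside genes that fell 41 of 59, or 69.5%. Over all adjacent tested genes the share was 51.9%. Neighbouring genes are not independent replicates, and these shares were not tested.

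Several annotated transcripts exist for 11 of the 95 called genes, or 11.6%, against 9.36% of genes tested. When every transcript was tested on its own, the 13 further transcripts of these 11 genes all passed the threshold in the direction of the transcript used. Transcripts of a gene share reads, so this is not independent of the first result. The median annotated span was 2.045 kb for called genes and 2.125 kb for all genes tested.

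Shoot apices of the same genotypes provide separate libraries, 3 WT and 3 pep1-1, in which 52 of 22157 genes tested were called, or 0.235%. Of the 95 leaf genes 92 were tested there, and 28 were called. The sign was the same in all 92, against 63.8% of the 21658 genes tested in both organs. Of the genes called without WT leaf replicate 1, 87.1% had the same sign in apex. The median log2 fold change of the 55 rising genes was 1.18 in leaf and 0.86 in apex, and that of the 37 falling genes was -2.03 and -1.58. The genes were chosen on the leaf values, and organs were not tested against each other. CPM values were scaled within each organ and are not compared between them. In apex, the locus on chromosome 4 (13836170 to 13837749), near-silent in WT leaves, had 9.06 to 14.7 CPM in WT apices and 33.8 to 50.6 CPM in pep1-1 apices. The locus on chromosome 6 with no read in mutant leaves had none in mutant apices either, and 0.688 to 1.22 CPM in WT apices. The locus on chromosome 7 had no read in WT apices and 2.84 to 6.71 CPM in mutant ones.

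The number of called genes depended on WT replicate 1. Without it 445 of 22992 genes were called, or 1.94%, 314 higher and 131 lower in pep1-1, and they included all 95. The 350 added genes were 257 higher and 93 lower, with a median size of 0.477 on the log2 scale, and 54 of them changed 2-fold or more. Their median mean level was 31.9 CPM, against 5.0 CPM for the 95. Because these 445 genes were called without WT replicate 1, its own values in them were not used in the choice. Its place was expressed as 0 at the mean of the other WT libraries and 1 at the mean of the mutant libraries. Both means came from the libraries used for the calls, so the distance between them may be overstated by the choice of genes. For 444 genes with a value, the median place was 0.516 (quartiles 0.102 and 0.982), and 48.4% lay nearer to WT. Of these, 349 were not called with all 6 libraries. Their median place was 0.725, and 120 of them lay nearer to WT.

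The same was done for each library in turn. Without WT replicate 2, 106 genes were called and its median place in them was 0.186, with 74.5% nearer to WT. Without pep1-1 replicate 3, 66 genes were called and its median place was 0.125, with 74.2% nearer to the mutant. Without WT replicate 3 or pep1-1 replicates 1 or 2, 39, 39 and 40 genes were called, and 97.4%, 92.3% and 97.5% of them placed the left-out library with its own genotype. These smaller sets also held larger changes, with median sizes from 2.15 to 2.35 against 0.57 in the 445, so the shares are not on an equal footing. Of the 95 genes, 38, 36 and 39 were among them.

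**Figure D5:**
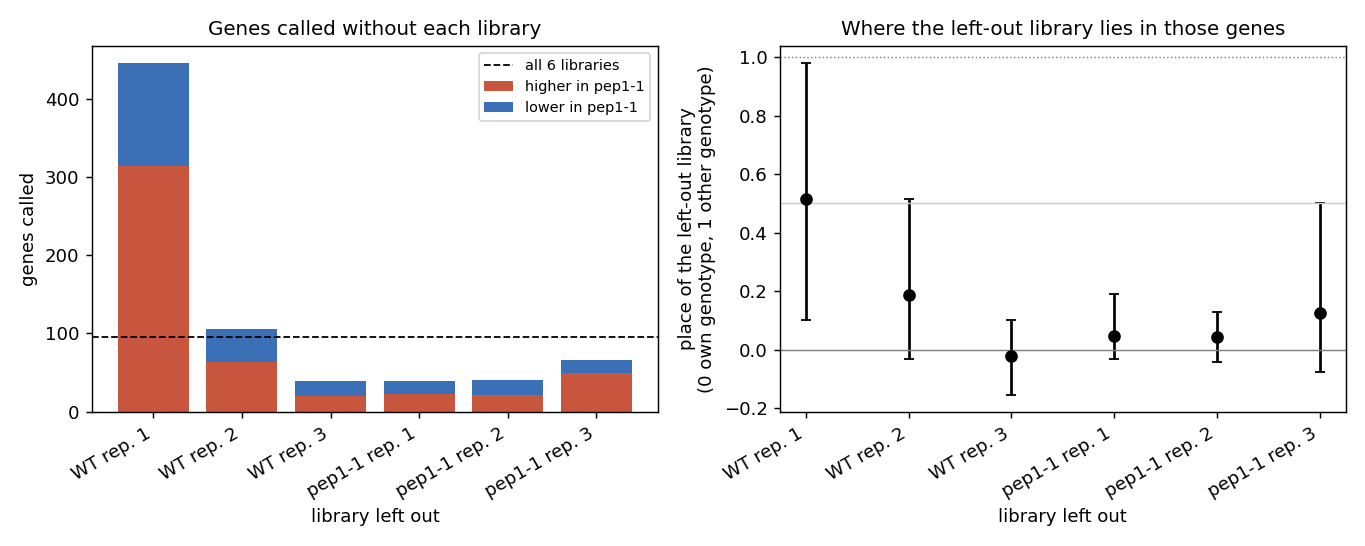
Left, genes called when each leaf library is left out (red higher, blue lower in pep1-1; dashed line, the 95 called with all 6). Right, place of the left-out library in the genes called without it, from 0 at its own genotype's mean to 1 at the other's, as median with quartiles: WT replicate 1 has a median of 0.516, and the other 5 libraries have medians from -0.0223 to 0.186. The sets differ in genes not called with all 6 libraries, from 349 of 444 for WT replicate 1 to 1 of 40 for pep1-1 replicate 2.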

How the data were processed

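The authors deposited raw read counts for each annotated transcript, without normalization. The submitters' processing notes list TopHat, bedtools and DESeq2 1.10.0, with no role for any. The genome build, the annotation and the strand setting were not given in the sources used here. Positions are those in the tables. Near-identical gene copies may share reads. For each of 35465 genes the transcript with most reads over the 12 libraries was kept; the other transcripts held 5.20% to 5.65% of a leaf library. Replicates differed by more than counting noise (chi-square per degree of freedom 5.38 to 24.1).

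The 6 leaf libraries were fitted with edgeR 4.0.16 in R 4.3.3 (TMM factors, filterByExpr, robust quasi-likelihood F test). SE was derived from the fold change and its F value; the mean log2 CPM is edgeR's. Apex libraries were fitted apart. DESeq2 1.42.0 and limma 3.58.1 were alternatives. Counting intervals are exact binomial ones on read totals, and intervals and floors cover counting error only.

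Named genes were the 12 largest rises and falls among called genes whose mean log2 CPM was 1 or more and whose genotypes did not overlap, the near-silent genes, the 5 called genes with the highest mean CPM, and called genes within 10 kb of each other, 42 in all. The comparison, lists and rules were chosen with earlier results of these data known. Wider distances between called genes, neighbour shares and the place of a left-out library were added after the values were seen.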

Additional observations from a re-analysis of the deposited data

How the results depend on the processing

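The count of 95 genes was 302 with the DESeq2 Wald test (210 higher, 92 lower), which started from the 28519 genes with a read and used its own filter, 157 with edgeR on those 28519 genes, 54 with the replicate number as a block and 34 at an adjusted p under 0.01, the last by construction. The 62 genes added with edgeR without its low-count filter had all been tested before. Other alternatives gave 64 to 106. With all 12 libraries in one fit it was again 95, of which 67 were shared. Leaving out single libraries gave 39 to 445 genes. Genes near-silent in one genotype then numbered 7 to 15, against 12. Chromosome 2 held 9.66% to 17.9% of called genes, against 16.8%, and chromosome 7 held 1.52% to 9.44%, against 3.16%, and 9.27% with DESeq2. The lowest level class held 16.7% to 28.2%, against 34.7%, and 20.9% with DESeq2, 24.1% with the block, 23.5% at an adjusted p under 0.01 and 51.6% with a 2-fold minimum. The highest class held 2.56% to 31.1%, against 9.47%, and 16.6% with DESeq2 and 2.94% at an adjusted p under 0.01. The same sign in apex was found for 87.1% to 100% of called genes. Stricter thresholds aside, 23 of 42 named genes kept their call in each of 15 alternatives and 19 lost it in at least 1, 11 of them with the block; of 630 values 547 kept the call, 83 lost it and 0 reversed. The causes were not tested. The labels do not say that replicate numbers pair plants, so the main fit did not pair libraries and the block was an alternative. Same-numbered WT and mutant libraries deviated together with correlations of 0.032, 0.22 and -0.096, and not every library correlated best with its own number. Calls lost with the block are counted here and are not listed gene by gene above. Depth limits the lowest values, since 3 reads are 0.0787 to 0.134 CPM in a leaf library.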
